A study of Arabidopsis thaliana with 25 samples.

Results

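Cotyledons of Arabidopsis thaliana seedlings grown in long days (group L, 5 libraries) were set against cotyledons of seedlings kept in darkness (group D, 5 libraries). These are 10 of the 25 libraries of the series, and they were chosen by the light regime in their labels, with no measured value involved. Both groups were wild type and had 5 days of growth on MS medium. In both, tissue was fixed in acetone, the cotyledons were cut out, and Drosophila cells were added before the RNA was extracted and sequenced in stranded, paired-end libraries on the DNB platform. The remaining groups were dark-grown seedlings given 1, 6 or 24 h of continuous light, and of these the 24 h group (5 libraries) is used at the end. Not given in the sources used here are the ecotype, the light intensity, the hour of harvest, and the amounts of tissue and fly cells in each extraction. Nothing in the labels says that the 5 libraries of a group came from separate sowings, so the spread that p-values measure here may be technical.

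A seedling that germinates in darkness keeps its cotyledons small and closed, lives on stored oil, and holds etioplasts that are loaded with protochlorophyllide. The E3 ligase complex of COP1 and the SPA proteins destroys activators of the light programme such as HY5, and the PIF transcription factors hold back greening genes. Phytochromes and cryptochromes switch off both brakes in light, after which cotyledons open, expand, build chloroplasts and feed the seedling by photosynthesis. The question put here is what distinguishes cotyledons that had grown in light-dark cycles from cotyledons that had no light at all, in total RNA output and gene by gene.

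Each gene was compared on 2 scales. The spike scale divides counts by the summed Drosophila counts of the library, and so follows plant RNA per unit of added fly RNA. In these bulk samples, fewer cells and less RNA per cell cannot be told apart. The within-Arabidopsis scale uses TMM factors, which take the typical Arabidopsis gene as unchanged, and so follows the make-up of the plant RNA. Levels below are within-Arabidopsis CPM, the count over the scaled library size, given per library in the order of replicates 1 to 5 or as mean ± SD over 5 libraries. A log2 difference is L minus D with its standard error (SE), named by its scale, and a gene was called at an adjusted p under 0.05. Over 20615 genes the spike-scale difference exceeded the within-Arabidopsis one by a median of 2.37.

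The L libraries held 20828845 to 24085995 counts and the D libraries 18042043 to 23904429. Fly counts made up 0.184% to 0.429% of them in L (42861 to 91510 counts) and 1.21% to 4.03% in D (254305 to 964232 counts). Over the genes tested, 2 L libraries correlated at r = 0.909 to 0.990 and 2 D libraries at 0.925 to 0.991, while an L and a D library correlated at 0.724 to 0.846. L replicate 5 stood nearest to the D group of the L libraries, with a mean r of 0.932 to its own group and 0.824 to D. Replicates 1 and 2 of D also stood apart from replicates 3 to 5 of D, since ribosomal RNA entries took 12.4% to 15.4% of their Arabidopsis counts, against 1.96% to 3.05% in the other 3 D libraries and 1.15% to 2.35% in L.

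Long-day cotyledons returned far more nuclear-encoded RNA per fly RNA. The ratio of nuclear counts to Drosophila counts was 462, 536, 219, 466 and 377 in the L libraries, against 23.1, 32.4, 58.5, 74.7 and 66.7 in the D libraries. Every L library lay above every D library, and the D values of replicates 1 and 2 were the lowest. The mean was 412 ± 122 in L and 51.1 ± 22.3 in D. The geometric means differed 8.48-fold, which is 3.08 ± 0.40 (SE) on the log2 scale. The exact permutation test, two-sided and over all ways to split the 10 libraries, gave p = 0.00794, the smallest it can give for 5 libraries against 5, and 0.0139 after adjustment over the 7 library values compared. Within replicates 1 and 2 the log2 difference was 4.19, and within replicates 3 to 5 it was 2.35, where exact tests cannot go below 0.333 and 0.1. Without the 100 genes with most counts the difference was 2.79, and without the ribosomal RNA entries 3.17.

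**Figure D1:**
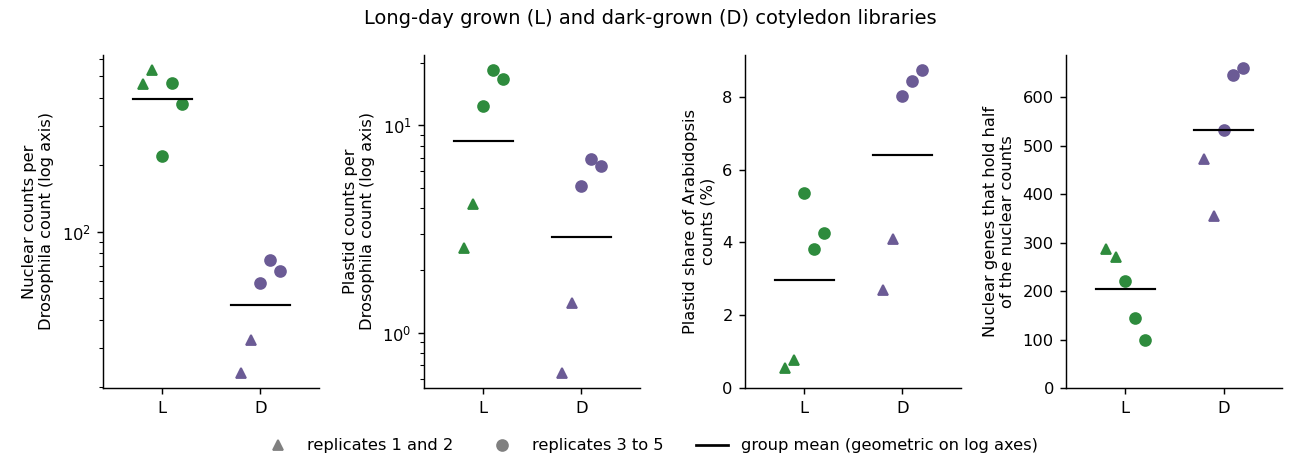
Library values of L (left) and D (right) in 4 panels: nuclear counts per Drosophila count and plastid counts per Drosophila count (both on log axes), the plastid share of Arabidopsis counts (percent), and the number of nuclear genes that hold 50% of nuclear counts. Each point is a library, triangles for replicates 1 and 2 and circles for replicates 3 to 5, and the line is the group mean, geometric on the log axes. In the first panel the 5 L libraries sit between 219 and 536, above all 5 D libraries between 23.1 and 74.7.

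Organelle transcripts were read in the same libraries. Plastid-encoded counts per fly count were 2.55, 4.17, 12.4, 18.6 and 16.8 in L, against 0.639, 1.39, 5.10, 6.88 and 6.40 in D. Both groups were low in replicates 1 and 2, the groups overlapped, and the log2 difference of 1.54 ± 0.90 (SE) did not pass the exact test (adjusted p = 0.135). As a share of Arabidopsis counts, plastid transcripts averaged 2.96 ± 2.17% in L and 6.40 ± 2.80% in D (log2 difference -1.49, exact test, adjusted p = 0.102). The plastid share was lower in L within replicates 1 and 2 (-2.35) and within replicates 3 to 5 (-0.92), with no overlap in either. Mitochondrial counts per fly count were higher in L by 1.15 ± 0.33 (SE) on the log2 scale (exact test, adjusted p = 0.0222), but their share of Arabidopsis counts was 0.0209 ± 0.0044% in L and 0.0903 ± 0.0619% in D, a difference of -1.88 (exact test, adjusted p = 0.0139).

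Fewer genes carried the bulk of the nuclear RNA in the light. The genes that together hold 50% of nuclear counts numbered 288, 271, 222, 145 and 100 in the L libraries, against 473, 356, 532, 646 and 660 in the D libraries. No L library reached the lowest D library, and the groups were closest in replicates 1 and 2. The log2 difference was -1.45 ± 0.33 (SE) with an adjusted p of 0.0139 in the exact test, -0.55 within replicates 1 and 2, and -2.05 within replicates 3 to 5. Without ribosomal RNA entries, which are among the leading entries in D, the counts were 214 ± 88 genes in L and 672 ± 60 in D. At an equal depth of 16649255 counts, 18210.0 ± 71 genes had at least 10 counts in L and 18800.0 ± 213 in D. With at least 1 count the order turned round, at 22540 ± 191.5 genes in L and 22360 ± 341.7 in D (exact test, adjusted p = 0.341).

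The small subunit of Rubisco led the RNA in L. RBCS1A held 4.41 ± 0.574% of Arabidopsis counts in L and 1.53 ± 0.326% in D, and RBCS3B, which shares reads with near-identical copies, held 3.17 ± 0.613% of Arabidopsis counts in L and 0.562 ± 0.158% in D. The other leaders of L were LHCB1.3, RBCS2B, LHCB1.5, PSBR, RCA and PSBX; all 8 belong to the antenna, the photosystems or carbon fixation. Together the 8 genes held 13.5 ± 2.2% of Arabidopsis counts in L and 4.62 ± 1.00% in D. Among the 8 nuclear leaders of D were 3 ribosomal RNA entries, along with RBCS1A, LHCB1.3 and RBCS2B again, the lipid transfer protein gene LTP2 and CA2, a carbonic anhydrase. LHCB1.3, an antenna protein of photosystem II, led in both groups: it held 1.49 ± 0.569% of Arabidopsis counts in L and 1.36 ± 0.567% in D, and its within-Arabidopsis difference of 0.68 ± 0.40 was not called. CA2 averaged 4616 ± 652 CPM in L and 6956 ± 1820.0 CPM in D, a within-Arabidopsis difference of -0.59 ± 0.24 whose call (adjusted p = 0.0368) was lost without L replicate 5, D replicate 1, D replicate 2 or D replicate 3.

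On the spike scale nearly every gene was higher in L. Of 20615 genes tested, 17495 (84.9%) were higher and 404 (1.96%) lower, with a median log2 difference of 2.35, which is 5.10-fold, and quartiles of 1.63 and 3.17. Within Arabidopsis the calls were balanced at 5891 higher (28.6%) and 5796 lower (28.1%), with a median of -0.02. That balance depends on the scaling, since division by total nuclear counts gave a median of -0.62, with 3288 genes higher and 10068 lower. All 5891 genes higher within Arabidopsis were also higher on the spike scale. Another 3278 genes were higher per fly RNA and lower within Arabidopsis, and 403 genes were lower on both scales. Libraries of the 2 groups did not overlap, in one direction or the other, for 14217 genes (69.0%) on the spike scale and for 8226 genes (39.9%) within Arabidopsis. The shares of called genes given here are those to set beside the counts of list members below.

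**Figure D2:**
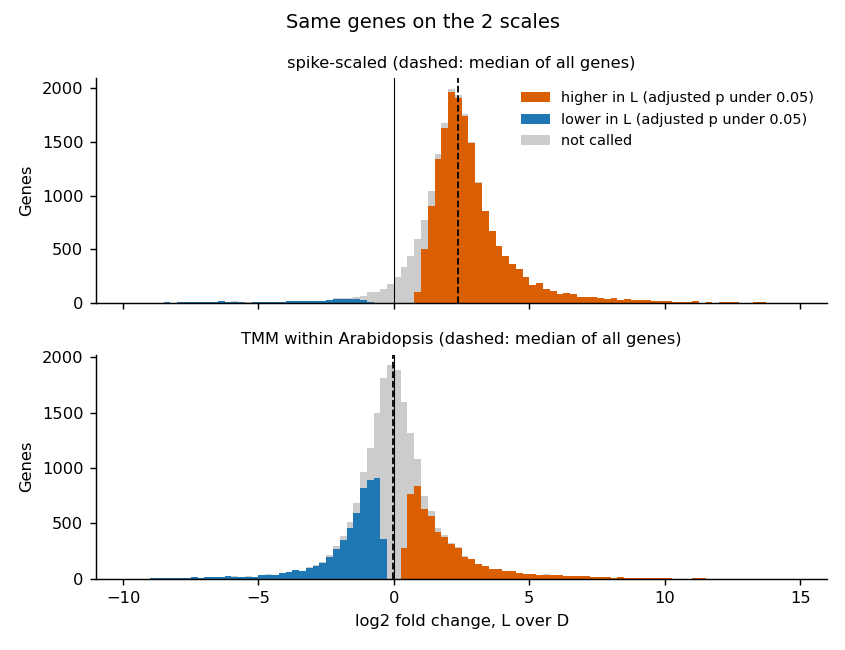
Number of genes (vertical axis) by log2 difference, L over D (horizontal axis), on the spike scale (upper panel) and within Arabidopsis (lower panel), coloured by call. The median, a dashed line, stands at 2.35 on the spike scale and at -0.02 within Arabidopsis.

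The genes with the largest differences were sought among single nuclear genes called in one direction on both scales, with libraries that did not overlap on either. The higher group also had to average at least 10 spike-scaled CPM. Of the 20615 genes tested, 3445 higher in L and 107 lower in L met these conditions, and the first 12 of each by spike-scale difference are described. They were ranked by their difference, so the sizes below are a description. Their calls and the lack of overlap were conditions of the choice, so neither is a further result. For 3 genes at the head of each group, the 250 bases upstream of the annotated start are shown 5′ to 3′ on the strand of the gene (RefSeq, assembly TAIR10.1), with capitals on any match to 7 short motifs named below. The promoters of the 3 genes that stood highest in L against D are these.
PPT2 (chr3:219137-219386, reverse strand): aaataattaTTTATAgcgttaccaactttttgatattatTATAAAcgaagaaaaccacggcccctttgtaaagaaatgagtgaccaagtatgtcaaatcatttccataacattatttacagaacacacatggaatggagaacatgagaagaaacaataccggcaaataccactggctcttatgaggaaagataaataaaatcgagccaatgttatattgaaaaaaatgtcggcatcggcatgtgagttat
CIPK20 (chr5:18588793-18589042, reverse strand): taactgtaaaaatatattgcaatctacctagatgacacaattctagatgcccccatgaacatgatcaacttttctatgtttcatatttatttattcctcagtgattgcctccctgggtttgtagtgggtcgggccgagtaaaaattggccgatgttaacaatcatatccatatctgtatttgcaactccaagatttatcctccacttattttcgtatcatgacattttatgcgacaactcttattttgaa
AT2G15020 (chr2:6493513-6493762, reverse strand): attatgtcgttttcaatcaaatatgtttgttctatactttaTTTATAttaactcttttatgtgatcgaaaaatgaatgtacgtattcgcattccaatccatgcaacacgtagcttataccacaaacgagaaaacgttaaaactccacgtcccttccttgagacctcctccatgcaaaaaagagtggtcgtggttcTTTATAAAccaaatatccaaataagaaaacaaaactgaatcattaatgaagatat
The promoters of the 3 genes that stood lowest in L against D are these.
CYP96A5 (chr2:9341181-9341430, forward strand): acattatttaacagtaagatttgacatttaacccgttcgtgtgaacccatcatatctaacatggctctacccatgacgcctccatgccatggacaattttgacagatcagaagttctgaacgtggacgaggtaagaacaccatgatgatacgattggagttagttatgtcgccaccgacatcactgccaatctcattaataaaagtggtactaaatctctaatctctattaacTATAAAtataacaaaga
BBX23 (chr4:6369951-6370200, reverse strand): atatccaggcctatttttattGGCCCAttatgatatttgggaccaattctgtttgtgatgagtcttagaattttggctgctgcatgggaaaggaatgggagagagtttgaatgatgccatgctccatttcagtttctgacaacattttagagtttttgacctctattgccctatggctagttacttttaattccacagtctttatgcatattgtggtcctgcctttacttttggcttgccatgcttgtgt
AT4G35720 (chr4:16927480-16927729, forward strand): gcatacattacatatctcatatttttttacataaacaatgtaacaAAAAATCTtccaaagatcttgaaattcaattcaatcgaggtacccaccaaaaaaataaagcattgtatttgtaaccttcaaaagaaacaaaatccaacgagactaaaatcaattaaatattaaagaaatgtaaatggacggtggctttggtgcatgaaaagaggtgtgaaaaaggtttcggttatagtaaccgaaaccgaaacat
Capitals mark the TATA motif in PPT2, AT2G15020 and CYP96A5, a site II motif in BBX23 and a CCA1-binding site in AT4G35720, while CIPK20 held none of the motifs.

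PPT2 (AT3G01550, chr3:216805-219136 on the reverse strand) encodes a phosphoenolpyruvate/phosphate translocator of the plastid envelope. It had 103, 91.6, 66.1, 47.6 and 38.8 CPM in the L libraries, against 0 CPM in the D libraries. PPT2 was thus present in each L library and had no count in any D library, which puts its level at least 2829-fold higher in L (3 counts over the group as the floor, adjusted p = 1.66e-10). CIPK20 (AT5G45820, chr5:18586870-18588792 on the reverse strand), a protein kinase that binds calcineurin B-like calcium sensors, had 7.44, 4.24, 3.47, 30.1 and 115 CPM in the L libraries and no count in D. Its levels in L spread widely, and all were above D (at least 1305-fold for the L mean, adjusted p = 4.49e-07). That floor rests mostly on L replicate 5. AT2G15020 (chr2:6491425-6493512 on the reverse strand), whose product is uncharacterized, had 87.3, 81.8, 72.1, 86.0 and 62.0 CPM in the L libraries, against 0, 0.0536, 0.0425, 0 and 0 CPM in the D libraries. With 7155 counts in L and 2 in D, the ratio of its CPM was 4800.0 (95% interval 1328 to 39640.0), which covers counting error only.

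Other genes in this group also had no count in D. They were MIR157c at 16.3 ± 4.14 CPM in L (at least 664-fold), AT1G47400 at 14.6 ± 6.57 CPM (at least 596-fold), and AT4G13800, a putative magnesium transporter, at 14.4 ± 10.8 CPM (at least 586-fold). BBX30, a small B-box protein that represses photomorphogenesis, reached 13.4 ± 7.49 CPM (at least 546-fold), and AT5G44575 reached 11.3 ± 10.2 CPM (at least 460.0-fold). The other 4 genes had few counts in D. The B-box gene BBX16 averaged 110.2 ± 64.7 CPM in L and 0.0535 ± 0.0502 CPM in D, with a within-Arabidopsis difference of 10.96 ± 0.76 (SE, adjusted p = 2.53e-11). AT2G25510 averaged 219.8 ± 67.2 CPM in L and 0.102 ± 0.228 CPM in D, AT3G28270 averaged 118 ± 78.3 CPM in L and 0.0802 ± 0.0752 CPM in D, and SQP1, a squalene epoxidase family gene that also occurs in a merged entry, averaged 67.0 ± 51.0 CPM in L and 0.0255 ± 0.0570 CPM in D. SQP1 had 3 counts in D, and its ratio was 2944 (95% interval 1007 to 14280.0).

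MIR157c is the precursor of a microRNA of the family that targets SPL transcription factors, and its RNA had 19.1, 18.9, 18.4, 15.7 and 9.29 CPM in the L libraries. L replicate 5 was the lowest of them, and all were above D at 0. The mature forms are shown because they are the product of the one microRNA gene among the 12, with bases 2 to 8 in capitals (RefSeq, TAIR10.1, reverse strand, chr3:6244673-6244693 for the 5p arm and chr3:6244527-6244547 for the 3p arm).
miR157c-5p: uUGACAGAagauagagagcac
miR157c-3p: gCUCUCUAuacuucugucacc
The counts are of the long precursor RNA and not of these mature forms.

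**Figure D3:**
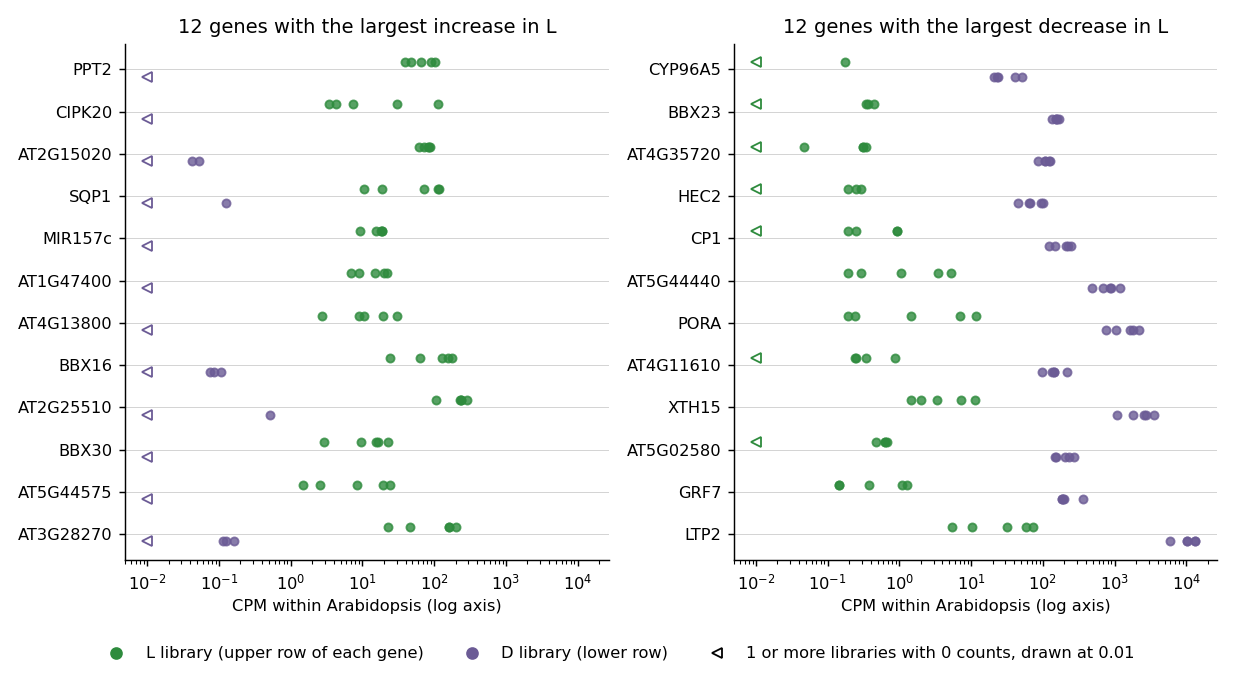
Within-Arabidopsis CPM (log axis) of the 12 genes with the largest increase (left panel) and the 12 with the largest decrease (right panel) in L, with L libraries in the upper and D libraries in the lower row of each gene. Each filled point is a library, and an open triangle at 0.01 stands for 1 or more libraries with 0 counts. The L and D points of each gene do not overlap, which was a condition for choosing these genes.

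The largest decrease was that of CYP96A5 (AT2G21910, chr2:9341431-9343220 on the forward strand), a cytochrome P450 gene. It had 0, 0, 0.173, 0 and 0 CPM in the L libraries, against 52.0, 20.7, 40.4, 22.7 and 23.5 CPM in the D libraries. All 3 of its L counts came from a single library, while D held 3969 counts, and the ratio of D to L in CPM was 986 (95% interval 337 to 4784). BBX23 (AT4G10240, chr4:6368829-6369950 on the reverse strand), a B-box activator of light responses that works with HY5, had 0, 0, 0.347, 0.369 and 0.439 CPM in the L libraries, against 152, 156, 136, 153 and 168 CPM in the D libraries. The D libraries lay close together and the L libraries near 0, a within-Arabidopsis difference of -9.44 ± 0.74 (SE, adjusted p = 1.62e-09). AT4G35720 (chr4:16927730-16929224 on the forward strand), with a DUF241 domain, averaged 0.203 ± 0.165 CPM in L and 109 ± 16.2 CPM in D, and its differences were -9.12 ± 0.57 within Arabidopsis and -6.99 ± 0.67 on the spike scale.

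The remaining genes of this group fell together on both scales. PORA, the protochlorophyllide oxidoreductase that dark-grown plastids accumulate, averaged 4.09 ± 5.05 CPM in L and 1506 ± 588 CPM in D. LTP2, a lipid transfer protein gene expressed in the epidermis, held 0.00287 ± 0.00236% of Arabidopsis counts in L and 1.28 ± 0.406% in D, with a within-Arabidopsis difference of -8.20 ± 0.65 (SE, adjusted p = 2.27e-10). XTH15, a xyloglucan endotransglucosylase of the cell wall, averaged 5.07 ± 4.12 CPM in L and 2358 ± 957 CPM in D. HEC2, a bHLH factor of the HECATE family, averaged 0.145 ± 0.137 CPM in L and 73.9 ± 22.8 CPM in D, and GRF7, a growth-regulating factor, averaged 0.609 ± 0.542 CPM in L and 225 ± 80.4 CPM in D. The lack of overlap between L and D was a condition for all of the 12. CP1, a papain-like cysteine protease gene, averaged 0.458 ± 0.436 CPM in L and 189.5 ± 51.8 CPM in D, and AT5G44440, of the berberine bridge enzyme family, averaged 2.05 ± 2.22 CPM in L and 828 ± 266 CPM in D. AT4G11610 (0.340 ± 0.318 CPM in L and 148 ± 44.2 CPM in D) and AT5G02580 (0.483 ± 0.281 CPM in L and 202 ± 53.0 CPM in D) complete the 12. The within-Arabidopsis differences of the 12 lay between -9.68 and -8.20 and the spike-scale ones between -7.58 and -6.18.

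Short promoter motifs occurred in genes called in either direction at shares within a few percentage points of those in all genes, and the differences were not tested. The window of 250 bases before to 50 after the start was read on both strands for 19760 genes, of which 5769 were higher and 5609 lower within Arabidopsis. The G-box CACGTG, bound by HY5 and the PIFs, was found in 10% of promoters of genes higher in L, 9.20% of those lower in L and 8.87% of all. The evening element AAAATATCT occurred in 2.62%, 3.6% and 2.94% in the same order, and the I-box core GATAAG in 14.9%, 16.5% and 15.1%. The CCA1-binding site AAAAATCT occurred in 8.41%, 8.08% and 7.98%, the telo-box AAACCCTA in 5.13%, 4.49% and 5.65%, site II (TGGGCC or TGGGCT) in 23.7%, 25.2% and 26.3%, and the TATA motif TATAAA in 51.6%, 50.1% and 50.3%. Site II was thus least common in the genes higher in L and most common over all genes tested. A match is a match of letters and says nothing of binding.

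Genes of the photosynthetic apparatus were higher in L almost without exception. Of 20 antenna genes, whose products bind chlorophyll around the photosystems, 19 rose within Arabidopsis and all 20 on the spike scale, with medians of 3.48 and 5.87. Among all genes tested 28.6% were called higher within Arabidopsis and 84.9% on the spike scale. Among 35 nuclear genes of the photosystems and electron transport 34 rose within Arabidopsis, with a median of 2.58. Calvin-Benson cycle genes rose in 20 of 21 cases (median 2.53) and photorespiration genes in 19 of 19 (median 2.53). No member of these lists was lower on either scale, and the same numbers of antenna and photosystem genes rose within replicates 1 and 2 alone, within replicates 3 to 5 alone and under total nuclear counts.

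Members of the antenna list differed widely in size of change. LHCB2.2, a trimeric antenna protein of photosystem II, had 3815, 3424, 3401, 6281 and 7925 CPM in the L libraries, against 21.6, 68.8, 112, 20.3 and 62.4 CPM in the D libraries. L replicates 4 and 5 were the highest, and every L library lay far above the highest D library (within-Arabidopsis difference 6.45 ± 0.48 (SE, adjusted p = 8.71e-11)). LHCB1.1 averaged 8820.0 ± 2723 CPM in L and 22.5 ± 20.2 CPM in D, a within-Arabidopsis difference of 8.62 ± 0.71, and LHCB1.4 differed by 6.58 ± 1.06. LHCB1 copies are near identical and LHCB1.1 also occurs in a merged entry, so reads may be split between them. The smallest difference of the list was that of LHCB1.3, already given.

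In the photosystems, PSBO2 of the oxygen-evolving complex had 1567, 1542, 1769, 2331 and 2536 CPM in the L libraries, against 34.6, 104, 104, 115 and 127 CPM in the D libraries. D replicate 1 was the lowest, and the groups were far apart (within-Arabidopsis difference 4.33 ± 0.33 (SE, adjusted p = 1.20e-10)). PGRL1A, which takes part in cyclic electron flow, averaged 803 ± 164 CPM in L and 56.5 ± 14.7 CPM in D, and PSAH2 of photosystem I averaged 4777 ± 1601 CPM in L and 416 ± 199.9 CPM in D. PSBR and PSBX, small subunits of photosystem II, differed by 2.33 ± 0.25 and 2.69 ± 0.38. The one member of the list not called was another subunit of photosystem I.

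**Figure D4:**
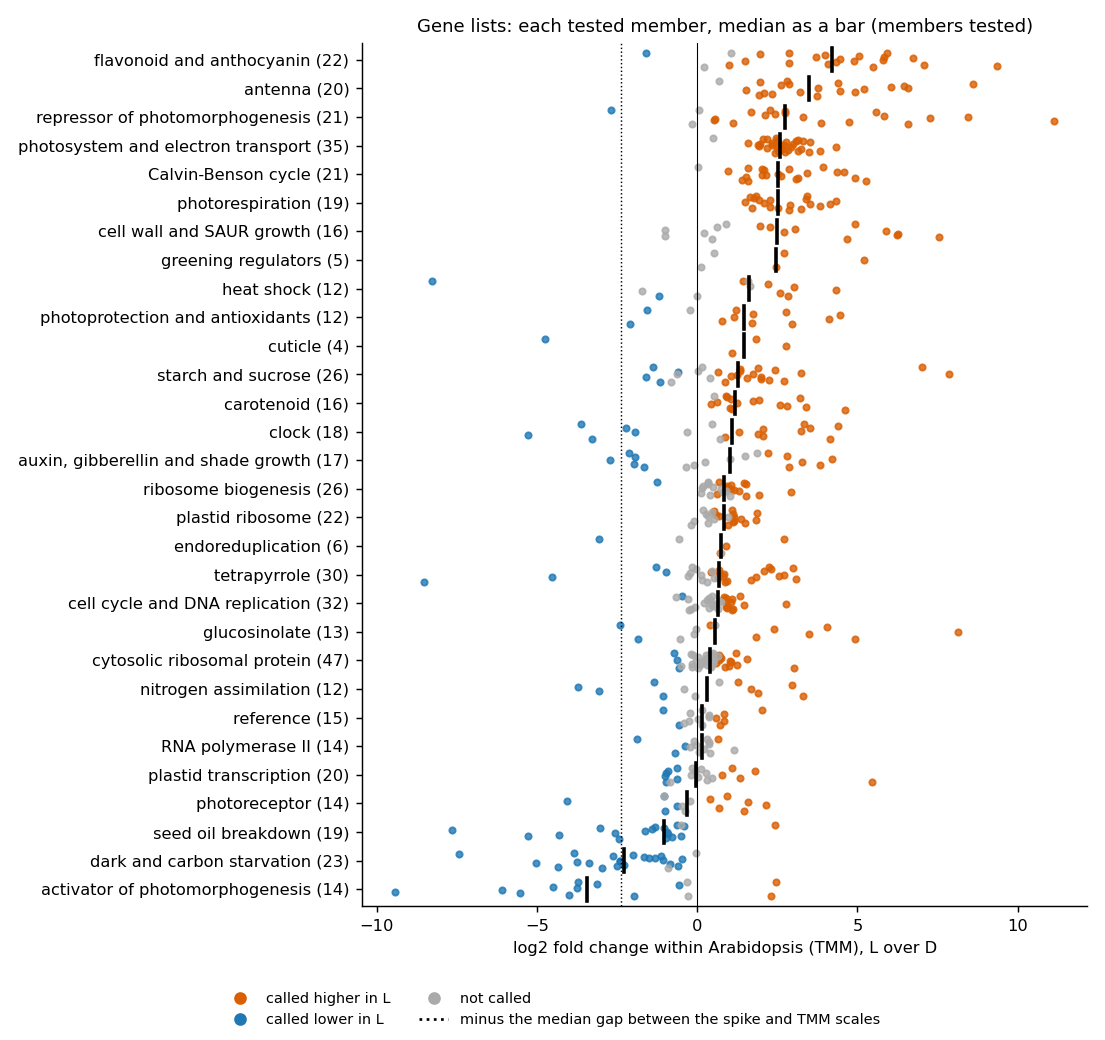
Within-Arabidopsis log2 differences, L over D, of the tested members of 30 gene lists, 1 point per gene, with the list median as a bar and the number tested in brackets. Orange points were called higher in L, blue points lower, and grey points were not called. The dotted line lies 2.37 below 0, the median gap between the scales, and the antenna, photosystem, Calvin-Benson and photorespiration members lie to the right of 0.

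In carbon fixation, Rubisco activase (RCA), which frees blocked Rubisco sites, differed by 4.36 ± 0.22 (SE, adjusted p = 3.40e-13) within Arabidopsis, with 8780.0 CPM in the lowest L library, against 357, 481, 468, 617 and 604 CPM in the D libraries. FBA1, a plastid aldolase, had 3826, 3212, 3639, 2971 and 1659 CPM in the L libraries, against 76.6, 137, 118, 160.3 and 149 CPM in the D libraries. L replicate 5 was the lowest in L for both genes, and neither gene's groups overlapped. RBCS1B and CP12-2, a regulator of the cycle, differed by 5.25 ± 0.43 and 4.92 ± 0.37, but both also occur in merged entries, so these values are uncertain. In photorespiration, which recycles the product of the oxygenase reaction of Rubisco, the mitochondrial serine hydroxymethyltransferase SHM1 had 2687, 2617, 2544, 2507 and 2747 CPM in the L libraries, against 92.3, 180.0, 159, 232 and 253 CPM in the D libraries. The L libraries differed little from each other (within-Arabidopsis difference 3.84 ± 0.23 (SE, adjusted p = 3.27e-12)). The P-proteins of glycine decarboxylase, GLDP1 and GLDP2, averaged 1785 ± 559 and 602 ± 90.7 CPM in L, against 102 ± 55.9 and 30.1 ± 7.12 CPM in D.

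Chlorophyll synthesis was split. Of 30 tetrapyrrole genes 17 rose and 4 fell within Arabidopsis (median 0.67), and 28 rose and 2 fell on the spike scale. Under total nuclear counts 9 rose and 9 fell, with a median of 0.06. GUN5, the H subunit of magnesium chelatase, had 1086, 1165, 1191, 1278 and 1000.0 CPM in the L libraries, against 70.1, 118, 127, 165 and 201 CPM in the D libraries. All L libraries stood above all D libraries, with a within-Arabidopsis difference of 3.07 ± 0.25 (SE, adjusted p = 3.15e-10). The 3 protochlorophyllide oxidoreductases, which carry out the light-requiring step, went different ways. PORA had 0.242, 0.191, 6.94, 11.6 and 1.44 CPM in the L libraries, against 760.0, 1061, 1664, 1831 and 2211 CPM in the D libraries. L replicates 3 and 4 kept the most PORA RNA within L, yet every L library was far below D (-8.53 ± 0.90 (SE, adjusted p = 2.61e-08) within Arabidopsis and -6.53 ± 0.91 (SE, adjusted p = 1.73e-07) on the spike scale).

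PORB had 11.9, 10.96, 34.9, 65.5 and 325 CPM in the L libraries, against 1426, 1765, 2149, 2587 and 2538 CPM in the D libraries. Its levels in L ran widely, with L replicate 5 the highest, and none overlapped with D within Arabidopsis. PORB fell on both scales, at -4.54 ± 0.65 (SE, adjusted p = 2.70e-06) within Arabidopsis and -2.47 ± 0.67 (SE, adjusted p = 0.00115) on the spike scale, or -3.91 there without L replicate 5. PORC, the form of green tissue, had 146, 132, 136, 267 and 180.5 CPM in the L libraries, against 11.9, 29.1, 31.7, 54.8 and 56.7 CPM in the D libraries. It rose by 2.23 ± 0.32 (SE, adjusted p = 2.62e-06) within Arabidopsis, with all L libraries above D. The other 2 genes that fell within Arabidopsis were called higher on the spike scale. HY2, which makes the phytochrome chromophore, differed by -0.96 ± 0.19 within Arabidopsis and 1.33 ± 0.48 on the spike scale, a call that replicates 3 to 5 alone did not give (0.72).

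Pigments and proteins that protect the photosystems were mostly higher in L. Carotenoid genes rose in 15 of 16 cases within Arabidopsis (median 1.17), and in 8 under total nuclear counts. Zeaxanthin epoxidase (ZEP) of the xanthophyll cycle had 430.2, 317, 304, 441 and 396 CPM in the L libraries, against 12.2, 17.2, 15.2, 15.2 and 16.5 CPM in the D libraries, a difference of 4.63 ± 0.19 (SE, adjusted p = 1.45e-14). The groups were tight and far apart. BCH2, a beta-carotene hydroxylase, and LUT5, a cytochrome P450 of lutein synthesis, differed by 3.40 ± 0.42 and 3.20 ± 0.25 within Arabidopsis. Of 12 photoprotection and antioxidant genes 9 rose and 2 fell. ELIP1, an early light-induced protein, had 944, 1119, 824, 908 and 119 CPM in the L libraries, against 4.75, 12.1, 23.3, 37.9 and 101 CPM in the D libraries. L replicate 5 fell near the highest D library while the other 4 L libraries lay far above, and ELIP1 kept its call without L replicate 5. Its partner ELIP2 averaged 1367 ± 832 CPM in L and 78.3 ± 45.2 CPM in D. LIL3:2, which anchors chlorophyll synthesis enzymes, fell within Arabidopsis (-2.09 ± 0.20 (SE, adjusted p = 4.89e-09)) and was not called on the spike scale (0.34 ± 0.46), where replicates 1 and 2 alone gave a call of 1.94 and replicates 3 to 5 alone gave -0.67, not called.

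Genes of the plastid's own transcription machinery were called about as often as all genes. The list held 20 genes for sigma factors, nuclear-encoded plastid polymerases and proteins of the plastid transcription complex. Of these, 5 rose and 6 fell within Arabidopsis (median -0.03), where 28.6% and 28.1% of all genes were called. On the spike scale 18 of the 20 rose, against 84.9% of all genes. Under total nuclear counts 3 rose and 10 fell. All 5 that rose encode sigma factors, which direct the plastid-encoded polymerase to its promoters. SIG5, the blue-light and stress-responsive one, had 102, 88.9, 74.7, 69.0 and 54.9 CPM in the L libraries, against 1.14, 1.61, 2.04, 1.73 and 2.28 CPM in the D libraries. The separation was complete, at 5.46 ± 0.30 (SE, adjusted p = 8.69e-13) within Arabidopsis, while SIG1 differed by 1.81 ± 0.20. PTAC10 of the polymerase complex averaged 13.1 ± 7.56 CPM in L and 26.1 ± 10.9 CPM in D, and its call within Arabidopsis (-1.0 ± 0.36 (SE, adjusted p = 0.0198)) was lost without D replicate 4, without D replicate 5 and within replicates 3 to 5.

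Of 5 greening regulators 3 rose within Arabidopsis, where 28.6% of all genes were called higher. GNL, a GATA factor, averaged 29.0 ± 5.96 CPM in L and 0.781 ± 0.210 CPM in D (5.21 ± 0.44 (SE, adjusted p = 7.87e-10) within Arabidopsis). GLK1 and GLK2, which switch on chloroplast genes, differed by 2.71 ± 0.40 and 2.46 ± 0.23, with GLK1 at 228, 231, 180.1, 30.4 and 64.8 CPM in the L libraries, against 21.0, 17.5, 24.6, 21.3 and 28.1 CPM in the D libraries. L replicates 4 and 5 were the lowest in L for GLK1, the first of them just above D. Plastid ribosome genes rose in 13 of 22 cases within Arabidopsis (median 0.82), none fell, and all 22 rose on the spike scale. On that scale 84.9% of all genes were higher. Under total nuclear counts 4 rose and 3 fell (median 0.17). The list holds 2 translation factors, SCO1 (elongation factor G) and EF-TU, which led it at 1.88 ± 0.19 and 1.85 ± 0.21, followed by the ribosomal protein PRPL27 at 1.48 ± 0.20.

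Photoreceptors moved both ways, with 6 higher and 4 lower of 14 within Arabidopsis, where 28.6% and 28.1% of all genes were called, and with 3 higher and 7 lower under total nuclear counts. Phytochrome A, the light-labile phytochrome of etiolated tissue, had 11.9, 13.3, 15.1, 28.3 and 30.2 CPM in the L libraries, against 354, 382, 371, 272 and 262 CPM in the D libraries. Every L library was below every D library within Arabidopsis, and PHYA fell on both scales (-4.05 ± 0.27 (SE, adjusted p = 1.09e-11) within Arabidopsis, -1.63 ± 0.44 (SE, adjusted p = 0.00118) per fly RNA). Per fly RNA the libraries overlapped, and within replicates 1 and 2 PHYA was not called (-1.10). Phytochrome B, the main receptor of red light in green tissue, had 31.9, 32.6, 33.2, 29.1 and 23.5 CPM in the L libraries, against 13.1, 13.8, 14.9, 17.5 and 19.1 CPM in the D libraries. PHYB was higher in all L libraries, with 0.94 ± 0.17 (SE, adjusted p = 6.16e-05) within Arabidopsis, but was not called under total nuclear counts (0.33). PHYE and CRY3, a cryptochrome of organelles, differed by 1.57 ± 0.20 and 2.15 ± 0.25, whereas CRY2, a light-labile blue-light receptor, was lower within Arabidopsis (-1.03 ± 0.21) and higher per fly RNA (1.35 ± 0.45), the second call not being given by replicates 3 to 5 alone (1.03).

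Genes that restrain photomorphogenesis were higher in light-grown cotyledons. Of 21 such genes 18 rose and 1 fell within Arabidopsis (median 2.74), 16 rose and 3 fell under total nuclear counts, and 20 rose on the spike scale. Among all genes 28.6% were higher within Arabidopsis and 84.9% on the spike scale. BBX30, already listed with no count in D, was followed by BBX31, another small B-box protein, with 27.6, 25.1, 15.7, 9.30 and 3.45 CPM in the L libraries, against 0, 0, 0, 0.188 and 0 CPM in the D libraries. All L libraries lay above D and replicate 5 was the lowest of them (within-Arabidopsis difference 8.45 ± 0.77 (SE, adjusted p = 2.64e-09)). PIF8 and PIF7, bHLH factors of the phytochrome-interacting family, differed by 7.26 ± 0.39 and 6.57 ± 0.21. COP1 and SPA1, of the ligase that degrades light-signalling factors, differed by 1.67 ± 0.19 and 2.43 ± 0.21. The gene that fell was PIF3, a regulator of etiolated growth, with 10.5, 10.2, 8.04, 11.9 and 11.1 CPM in the L libraries, against 105, 65.2, 58.7, 50.4 and 54.7 CPM in the D libraries. The groups did not overlap within Arabidopsis (-2.69 ± 0.27 (SE, adjusted p = 1.30e-08)), and on the spike scale PIF3 differed by -0.12 ± 0.42, which was not called and turned to 0.08 without L replicate 3. PIF7, PIF8, COP1, SPA1, CRY2, HY2 and other list members outside the rule for named genes were chosen after their values were seen.

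Activators of photomorphogenesis went the other way. Of 14 tested 10 fell and 2 rose within Arabidopsis (median -3.43), and 7 fell and 5 rose on the spike scale (median -0.95), against 28.1% and 1.96% of all genes called lower. PIL1, a bHLH gene that responds fast to light and shade, had 0.145, 0.238, 0.405, 0.369 and 0.188 CPM in the L libraries, against 17.62, 13.5, 19.7, 21.7 and 20.3 CPM in the D libraries. HFR1, a bHLH factor that binds PIFs, had 2.17, 3.15, 4.16, 6.28 and 3.39 CPM in the L libraries, against 34.0, 54.9, 66.6, 47.8 and 50.03 CPM in the D libraries. Both were lower in each L library within Arabidopsis, PIL1 by -6.10 ± 0.37 and HFR1 by -3.73 ± 0.31, and both fell on the spike scale, by -3.92 ± 0.62 and -1.43 ± 0.47. On that scale the libraries of PIL1 did not overlap but those of HFR1 did, and within replicates 1 and 2 HFR1 was not called (-0.32). FHY1 and FHL, which carry phytochrome A into the nucleus, differed by -4.50 ± 0.48 and -3.99 ± 0.41 within Arabidopsis, and by -2.13 and -1.59 on the spike scale, where FHL was not called within replicates 1 and 2 (-0.87).

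HY5, the bZIP factor at the centre of the light response, had 33.7, 34.2, 24.0, 12.9 and 6.97 CPM in the L libraries, against 84.1, 148, 79.9, 59.0 and 69.2 CPM in the D libraries. L replicates 4 and 5 were the lowest, and all L libraries were below D within Arabidopsis (-1.98 ± 0.40 (SE, adjusted p = 2.00e-04)). On the spike scale the difference of 0.65 ± 0.49 was not called (adjusted p = 0.209), while within replicates 1 and 2 it was 1.95 and called, and within replicates 3 to 5 it was -0.69 and not called. Its relative HYH rose by 2.3 ± 0.33 (SE, adjusted p = 2.26e-06) within Arabidopsis. BBX22 averaged 24.6 ± 40.1 CPM in L and 4.48 ± 0.962 CPM in D and was called higher (2.46 ± 0.68 within Arabidopsis), but without L replicate 5 the difference was 0.58 and not called, and within replicates 1 and 2 it was -0.90. BBX22 also occurs in a merged entry.

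**Figure D5:**
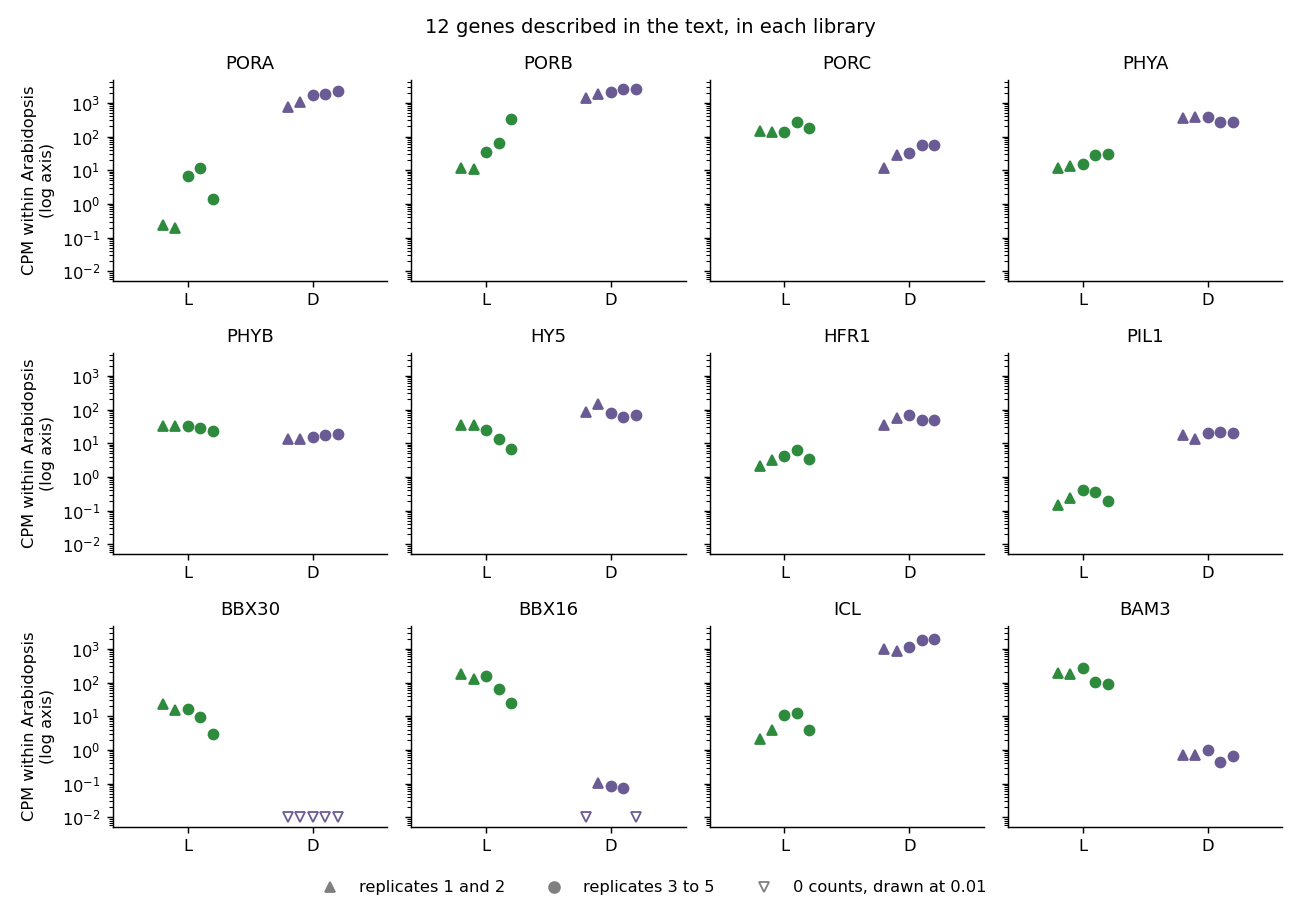
Within-Arabidopsis CPM (log axis) of 12 genes in each library, L left of D, with triangles for replicates 1 and 2, circles for replicates 3 to 5 and open triangles at 0.01 for libraries with 0 counts. PORA, PORB, PHYA, HY5, HFR1, PIL1 and ICL lie lower in all 5 L libraries than in any D library, and PORC, PHYB, BBX30, BBX16 and BAM3 lie higher.

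Flavonoid and anthocyanin genes rose in 19 of 22 cases within Arabidopsis, with a median of 4.22, and 1 fell. DFR, the branch point to anthocyanins, had 2.03, 0.715, 10.6, 5.11 and 1.004 CPM in the L libraries and no count in D, at least 158-fold higher. TT19, a glutathione transferase that carries pigments to the vacuole, averaged 25.6 ± 20.9 CPM in L and 0.173 ± 0.168 CPM in D (7.08 ± 0.96 (SE, adjusted p = 1.19e-06) within Arabidopsis). TT4, chalcone synthase at the head of the pathway, had 691, 624, 929, 311 and 44.9 CPM in the L libraries, against 5.31, 17.5, 33.0, 175 and 129 CPM in the D libraries. Its groups overlapped, because L replicate 5 fell below D replicates 4 and 5, and TT4 was still called at 2.85 ± 0.82 (SE, adjusted p = 0.00502), but not within replicates 3 to 5 (1.93). MYB111, an activator of flavonol synthesis, was the member that fell (-1.61 ± 0.46 (SE, adjusted p = 0.00487) within Arabidopsis), while its spike-scale difference was 0.40 ± 0.64 and not called. Within replicates 1 and 2 alone MYB111 did not fall within Arabidopsis (-0.23, not called) and was called higher on the spike scale (3.5), against -0.72, not called, on that scale within replicates 3 to 5.

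Clock genes moved both ways. Of 18 genes 10 rose and 5 fell within Arabidopsis, against 28.6% and 28.1% of all genes. PRR9, a morning pseudo-response regulator, had 34.2, 31.99, 22.6, 39.0 and 24.0 CPM in the L libraries, against 0.921, 3.48, 1.49, 0.864 and 0.683 CPM in the D libraries. LNK1, a morning coactivator, averaged 87.6 ± 22.9 CPM in L and 5.00 ± 1.5 CPM in D, and the morning MYB factors CCA1 and LHY differed by 3.53 ± 0.44 and 3.34 ± 0.66. All 4 were higher in L on both scales. BOA, a GARP factor related to LUX, had 0.531, 0.715, 0.520, 0.308 and 0.816 CPM in the L libraries, against 24.3, 23.9, 23.2, 23.9 and 17.5 CPM in the D libraries, which is -5.27 ± 0.39 (SE, adjusted p = 6.70e-11) within Arabidopsis. TOC1, an evening regulator, and LUX, of the evening complex, differed by -3.30 ± 0.46 and -1.94 ± 0.33 within Arabidopsis, and by -0.90 ± 0.48 and 0.46 ± 0.41 on the spike scale, neither called there. TOC1 was called lower on the spike scale without L replicate 5 (-1.70), without D replicate 1 (-1.05), with the replicate block (-1.12) and with TMM factors over Drosophila genes (-1.04). A gap of this kind between a cycling group and a dark group cannot be told apart from a difference in the hour of harvest.

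Genes that turn stored oil into sugar were mostly lower in L within Arabidopsis. Of 19 genes of oil breakdown, peroxisomal beta-oxidation and the glyoxylate cycle 17 fell and 1 rose within Arabidopsis (median -1.02). On the spike scale 10 rose and 3 fell, where 84.9% of all genes were higher and 1.96% lower. Within Arabidopsis 28.1% of all genes were lower. Isocitrate lyase (ICL) had 2.17, 3.96, 10.6, 12.8 and 3.83 CPM in the L libraries, against 969, 843, 1161, 1846 and 1934 CPM in the D libraries. Malate synthase (MLS) averaged 1.28 ± 0.646 CPM in L and 49.8 ± 28.4 CPM in D. ICL, MLS and the gluconeogenic PCK1 fell on both scales, ICL by -7.66 ± 0.63 within Arabidopsis and -5.60 ± 0.74 per fly RNA, MLS by -5.30 ± 0.58 and -3.23 ± 0.73, and PCK1 by -4.32 ± 0.32 and -2.05 ± 0.53. Within replicates 1 and 2 PCK1 was not called per fly RNA (-1.0). The gene that rose, PMDH2, encodes a peroxisomal malate dehydrogenase that also serves photorespiration, and it averaged 1552 ± 67.1 CPM in L and 291 ± 41.7 CPM in D. Of 11 genes of seed storage proteins, oleosins and late embryogenesis proteins 2 passed the filter, and neither was called within Arabidopsis.

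Genes known to respond to darkness and carbon starvation were lower within Arabidopsis in 21 of 23 cases, with a median of -2.28, and none was higher. On the spike scale 9 rose and 4 fell. Of all genes 28.1% were lower within Arabidopsis, and 84.9% were higher and 1.96% lower on the spike scale. BCAT2, a branched-chain amino acid transaminase, had 2.46, 4.58, 2.60, 2.15 and 6.84 CPM in the L libraries, against 1132, 1019, 779, 152 and 163 CPM in the D libraries. D replicates 1 to 3 held the most and D replicates 4 and 5 several-fold less, while all L libraries lay far below them (-7.44 ± 0.94 (SE, adjusted p = 4.11e-07) within Arabidopsis). EXL4 of the EXORDIUM family averaged 6.96 ± 2.198 CPM in L and 142 ± 118 CPM in D (-4.35 ± 0.46). DIN2, a dark-inducible beta-glucosidase, averaged 0.441 ± 0.162 CPM in L and 14.9 ± 13.8 CPM in D, and its spike-scale call (-2.18 ± 0.76 (SE, adjusted p = 0.00829)) was lost without D replicate 3 (-1.34) and within replicates 1 and 2 (-1.59). In replicates 1 and 2 alone 22 of the 23 were lower within Arabidopsis, and in replicates 3 to 5 alone 12.

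Starch and sucrose genes rose in 17 of 26 cases and fell in 4 within Arabidopsis (median 1.28), or 12 and 7 under total nuclear counts. Among all genes 28.6% rose and 28.1% fell within Arabidopsis. BAM3, a plastid beta-amylase that degrades leaf starch at night, had 186, 179.9, 263, 101 and 87.3 CPM in the L libraries, against 0.700, 0.696, 0.978, 0.451 and 0.683 CPM in the D libraries. GBSS1, the granule-bound starch synthase, had 689, 583, 422, 115 and 19.1 CPM in the L libraries, against 1.55, 2.52, 3.36, 2.93 and 3.80 CPM in the D libraries. L replicate 5 was the lowest in L for both, and no library overlapped with D, at 7.86 ± 0.36 and 7.01 ± 0.67 within Arabidopsis. PWD, a glucan water dikinase, fell within Arabidopsis (-1.61 ± 0.24 (SE, adjusted p = 5.71e-06)) and was not called on the spike scale (0.59 ± 0.51), where replicates 1 and 2 alone gave a call of 2.03.

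In nitrogen assimilation 5 of 12 genes rose and 4 fell within Arabidopsis, against 28.6% and 28.1% of all genes. GDH2, a glutamate dehydrogenase that serves when carbon is short, had 6.09, 21.7, 8.21, 23.7 and 95.7 CPM in the L libraries, against 785, 463, 430.1, 213 and 169.9 CPM in the D libraries. GDH2 and GDH1 were lower in L within Arabidopsis, at -3.73 ± 0.66 and -3.07 ± 0.33, and not called on the spike scale. There GDH2 was at -1.06 ± 0.57, and it was called lower without L replicate 5 (-1.91), with the replicate block (-1.30) and within replicates 1 and 2 (-1.61). ASN2, an asparagine synthetase of the light, averaged 103 ± 45.8 CPM in L and 10.5 ± 5.70 CPM in D (3.29 ± 0.39 (SE, adjusted p = 1.57e-07)).

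Of 13 glucosinolate genes 7 rose and 2 fell within Arabidopsis, or 6 and 5 under total nuclear counts. The shares of all genes called within Arabidopsis were 28.6% higher and 28.1% lower. MYB28, which switches on the aliphatic branch, had 27.1, 23.4, 31.1, 22.7 and 20.02 CPM in the L libraries, against 0.811, 0.696, 1.06, 1.09 and 0.417 CPM in the D libraries. CYP83A1 of that branch averaged 3.92 ± 4.99 CPM in L and 0.00759 ± 0.0170 CPM in D, and with 1 count in D the ratio of its CPM was 474 (95% interval 84.5 to 18760.0). Both were above D in all L libraries. CYP79B3, of the indolic branch, fell within Arabidopsis (-2.42 ± 0.33 (SE, adjusted p = 1.32e-06)), with -0.37 ± 0.46 on the spike scale, which was not called, and 1.52, called, within replicates 1 and 2 alone.

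Growth genes showed mixed moves. In the list of cell wall and SAUR genes 10 of 16 rose and none fell within Arabidopsis (median 2.48), or 9 and 2 under total nuclear counts. The small auxin up RNAs SAUR16, SAUR14 and SAUR15 led it, and SAUR16 had 159, 106, 95.3, 116 and 78.8 CPM in the L libraries, against 0.147, 1.55, 0.850, 0.376 and 0.152 CPM in the D libraries. L was above D throughout for SAUR16, at 7.55 ± 0.57 (SE, adjusted p = 9.48e-11), and SAUR14 and SAUR15 differed by 6.27 ± 0.50 and 6.25 ± 0.80. Among 17 genes of auxin, gibberellin and shade growth 6 rose and 5 fell within Arabidopsis, where 28.6% and 28.1% of all genes were called. HAT1, an HD-ZIP factor, averaged 33.9 ± 7.08 CPM in L and 1.85 ± 0.758 CPM in D (4.2 ± 0.29), and GA20OX1 of gibberellin synthesis averaged 2.77 ± 1.88 CPM in L and 0.201 ± 0.257 CPM in D (3.84 ± 0.82 (SE, adjusted p = 3.22e-04)). ATHB2, the HD-ZIP marker of shade, averaged 3.01 ± 0.659 CPM in L and 19.9 ± 6.14 CPM in D, lower within Arabidopsis (-2.73 ± 0.27 (SE, adjusted p = 1.02e-08)) and not called on the spike scale (-0.35 ± 0.45).

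Genes of the cell cycle and DNA replication rose in 14 of 32 cases and fell in 1 within Arabidopsis (median 0.65). Of all genes 28.6% and 28.1% were called there. All 32 rose on the spike scale, where 84.9% of all genes were higher. Under total nuclear counts 2 rose and 5 fell (median 0.01). Ribonucleotide reductase subunits led the list. RNR2A had 67.0, 64.3, 43.6, 11.1 and 9.98 CPM in the L libraries, against 5.42, 6.43, 4.51, 6.499 and 6.00 CPM in the D libraries. L replicates 1 to 3 held most of its RNA, and L replicates 4 and 5 stood closer to D (2.77 ± 0.39 (SE, adjusted p = 2.25e-06)). TSO2 differed by 1.47 ± 0.25. CDKA;1, the core cell-cycle kinase, averaged 28.9 ± 2.70 CPM in L and 40.0 ± 7.40 CPM in D, and its call (-0.47 ± 0.19, adjusted p = 0.0405) was lost without L replicate 2 or without any of D replicates 3, 4 and 5. In replicates 1 and 2 alone 16 rose, and in replicates 3 to 5 alone 6. Of 6 endoreduplication genes 3 rose and 1 fell within Arabidopsis, or 1 and 2 under total nuclear counts. SMR1, a cyclin-dependent kinase inhibitor, averaged 134 ± 23.2 CPM in L and 20.4 ± 7.41 CPM in D (2.72 ± 0.33), and its relative SIM averaged 4.84 ± 2.84 CPM in L and 40.1 ± 11 CPM in D (-3.06 ± 0.37). DEL1, an atypical E2F factor, differed by 0.90 ± 0.35, a call that was lost without any one of L replicates 3, 4 and 5 or D replicates 1 and 2, and under total nuclear counts.

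Ribosome genes split by replicate set. Of 47 cytosolic ribosomal protein genes 15 rose and 3 fell within Arabidopsis (median 0.41), where 28.6% and 28.1% of all genes were called, and all 47 rose on the spike scale. Under total nuclear counts 2 rose and 10 fell (median -0.18). Within replicates 1 and 2 the numbers were 29 and 2, and within replicates 3 to 5 they were 3 and 2. RPS8B averaged 1.44 ± 0.611 CPM in L and 0.168 ± 0.126 CPM in D (3.04 ± 0.57) and RPSAB 7.81 ± 4.13 CPM in L and 2.65 ± 1.18 CPM in D (1.55 ± 0.32), while RPL10C averaged 236 ± 38.3 CPM in L and 389 ± 82.6 CPM in D (-0.72 ± 0.18). Ribosomal protein genes have near-identical copies, so reads may be split between them. Ribosome biogenesis genes rose in 13 of 26 cases and fell in 1 (median 0.85), with 24 rising in replicates 1 and 2, 3 in replicates 3 to 5, and 5 under total nuclear counts. NHP2 and FIB1, of the small nucleolar ribonucleoproteins, differed by 2.92 ± 0.56 and 1.93 ± 0.52, both with a merged entry. PRH75, a nucleolar RNA helicase, fell (-1.27 ± 0.27 (SE, adjusted p = 3.05e-04)), but was not called within replicates 1 and 2 (-0.46), and FIB1 was not called within replicates 3 to 5 (1.92).

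Genes of RNA polymerase II, which makes messenger RNA, were mostly not called within Arabidopsis. Of 14 subunit genes 1 rose and 3 fell within Arabidopsis (median 0.13), none rose and 6 fell under total nuclear counts (median -0.42), and 13 rose on the spike scale. The largest subunit, NRPB1, had 17.9, 18.4, 20.5, 24.8 and 26.2 CPM in the L libraries, against 19.2, 16.1, 32.1, 25.7 and 34.2 CPM in the D libraries. The groups overlapped, with -0.24 ± 0.27 within Arabidopsis (not called, but called at -0.88 under total nuclear counts) and 1.98 ± 0.53 (SE, adjusted p = 0.00101) on the spike scale. NRPB8A and NRPB2 fell within Arabidopsis by 1.89 and 0.68 on the log2 scale, and NRPB9B rose (0.66 ± 0.21), a call lost without L replicate 3, within replicates 1 and 2, and under total nuclear counts. Within replicates 1 and 2 NRPB2 was not called (-0.37). Of 15 genes often used as a reference for quantitative PCR 5 rose and 2 fell within Arabidopsis, 1 rose and 7 fell under total nuclear counts (median -0.45), and all 15 rose on the spike scale. The shares over all genes were 28.6% higher and 28.1% lower within Arabidopsis, and 84.9% higher on the spike scale. ACT2 had 807, 710.5, 977, 723 and 604 CPM in the L libraries, against 370.2, 446, 546, 395 and 401 CPM in the D libraries (0.82 ± 0.20 (SE, adjusted p = 0.00101) within Arabidopsis), and was not called under total nuclear counts (0.23). UBQ10 was at 0.37 ± 0.24 within Arabidopsis, not called, and turned to -0.22 under total nuclear counts. GAPC2 differed by 2.02 ± 0.23 and ACT8 by -1.07 ± 0.18. On the spike scale ACT2 was higher by 3.16 ± 0.51 and UBQ10 by 2.92 ± 0.46.

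Of 12 heat shock genes 6 rose and 2 fell within Arabidopsis, or 4 and 3 under total nuclear counts. Of all 20615 genes, 28.6% were higher and 28.1% lower within Arabidopsis, and 3288 were higher and 10068 lower under total nuclear counts. HSP22, of the endoplasmic reticulum, had 3 counts in L, all in replicate 3, against 16.4, 12.8, 9.86, 13.8 and 8.01 CPM in D, and the ratio of D to L was 370.4 (95% interval 126 to 1798). HSP17.6II and HSP70 averaged 130.5 ± 133 CPM in L and 6.47 ± 3.35 CPM in D and 169.6 ± 145 CPM in L and 21.1 ± 3.77 CPM in D, with libraries that overlapped. No heat shock gene was higher within replicates 3 to 5 alone, while 9 were higher within replicates 1 and 2. In the cuticle list, LTP1 differed by 2.76 ± 0.53, KCS6 of wax synthesis by 1.84 ± 0.16, and CER1 of alkane synthesis fell, with 1.06 ± 0.813 CPM in L and 28.1 ± 8.03 CPM in D (-4.75 ± 0.74 (SE, adjusted p = 8.49e-06)).

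Marker genes of other cell types were read in the same libraries. Of the root markers 2 of 10 passed the filter, CASP1 at 0.817 ± 0.554 CPM in L and 0.196 ± 0.153 CPM in D and SCR at 33.4 ± 9.10 CPM in L and 17.35 ± 2.105 CPM in D, and CASP1's call was lost on leaving out any one library except L replicates 3 and 4 and D replicate 3. Neither was called under total nuclear counts. Shoot meristem markers were lower in L: all 7 tested fell within Arabidopsis, and together they held 0.000281% of Arabidopsis counts in L and 0.00237% in D. STM, which maintains the meristem, had 0.0966, 0.0953, 0.925, 0.431 and 0.628 CPM in the L libraries, against 6.82, 3.27, 8.08, 6.12 and 7.74 CPM in the D libraries. CLV3, a stem cell peptide, had no count in L and 126 counts in D, at least 31.9-fold lower, and KNAT2 averaged 0.266 ± 0.139 CPM in L and 2.81 ± 0.942 CPM in D. On the spike scale 2 of the 7 fell. Of all genes 28.1% were lower within Arabidopsis and 1.96% on the spike scale. How much meristem or young leaf tissue came with the dissected cotyledons was not tested.

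Of the markers of true-leaf trichomes 1 of 3 passed the filter, TRY at 13.8 ± 5.61 CPM in L and 2.16 ± 0.771 CPM in D (2.68 ± 0.46). Stomatal lineage markers rose in 7 of 13 cases and fell in 1 within Arabidopsis, or 3 and 4 under total nuclear counts. The shares over all genes were 28.6% higher and 28.1% lower within Arabidopsis. FAMA, of the last step to guard cells, averaged 10.8 ± 0.906 CPM in L and 3.71 ± 0.302 CPM in D, HT1, a guard cell kinase, 4.33 ± 0.565 CPM in L and 0.636 ± 0.321 CPM in D, and ERL1, a receptor kinase, 2.46 ± 0.682 CPM in L and 5.01 ± 2.14 CPM in D. Vascular markers rose in 6 of 9 cases within Arabidopsis, while under total nuclear counts 1 rose and 1 fell. The list includes the secondary wall cellulose synthases IRX5 and IRX1 at 1.92 ± 0.34 and 1.15 ± 0.30 and the procambial factor ATHB8 at 1.13 ± 0.19, and IRX1 (0.51) and ATHB8 (0.53) were not called under total nuclear counts. Of 4 epidermis markers PDF1 was called lower in L (-1.59 ± 0.32) and the other 3 were not called within Arabidopsis. Over the 37 lists, the within-Arabidopsis median lay on the same side of 0 in both replicate sets for 33, and on the side it has under TMM factors when total nuclear counts were used for 31.

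The files give plastid and mitochondrial genes by identifier only. Of 107 plastid entries tested 59 rose and none fell on the spike scale, and 3 rose and 1 fell within Arabidopsis (median -0.39). Of 54 mitochondrial entries 36 rose on the spike scale, and within Arabidopsis none rose and 7 fell (median -0.77). Of all genes 84.9% rose on the spike scale, and 28.6% rose and 28.1% fell within Arabidopsis. Differences of plastid entries within Arabidopsis ran from -2.96 to 11.27. ATCG00020, 1 of the 3 called higher, was at 2.14 (adjusted p = 0.0351), and ATCG00660, the 1 called lower, was at -1.30 (adjusted p = 0.0495). Both of these lie near the threshold of 0.05, and the other entries called higher are not described here.

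Cotyledons that had grown in long days were last set against dark-grown ones given 24 h of light, a comparison that uses the same L libraries. Within Arabidopsis 1232 genes (5.98%) were higher and 959 (4.65%) lower in L, and on the spike scale 10826 (52.5%) were higher and 106 (0.514%) lower, with a median of 1.18. These counts rest on few libraries. Without L replicate 1 the within-Arabidopsis counts were 671 and 573, and without L replicate 2 they were 743 and 620. Without 24 h replicate 1 there were 718 higher, and without 24 h replicate 2 there were 809. On the spike scale the count of higher genes was 5862 without L replicate 1, 3724 without L replicate 2, 3425 without 24 h replicate 1 and 4860 without 24 h replicate 3. Leaving out 24 h replicate 1 or 3 also brought the spike-scale count of lower genes to 65 and 63. Within replicates 3 to 5 alone 78 genes were higher and 60 lower within Arabidopsis.

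Photosynthesis genes were mostly not called between L and 24 h within Arabidopsis, where 2 of 20 antenna genes and 2 of 21 Calvin-Benson cycle genes were higher. On the spike scale 15 antenna, 26 of 35 photosystem and electron transport, and 14 Calvin-Benson cycle genes were higher. None was lower there, and 52.5% of all genes were higher. GLK1 averaged 147 ± 93.6 CPM in L and 28.1 ± 7.83 CPM after 24 h, a difference of 2.38 ± 0.40 (SE, adjusted p = 6.08e-04), and GLK2 differed by 1.07 ± 0.22 (SE, adjusted p = 0.00364). L replicate 4 of GLK1, at 30.4 CPM, stood close to the 24 h mean. GBSS1 averaged 366 ± 291 CPM in L and 63.8 ± 8.10 CPM after 24 h (2.52 ± 0.54 (SE, adjusted p = 0.00448)), but L replicate 5 of GBSS1, at 19.1 CPM, lay below the 24 h mean. Starch and sucrose genes were higher in L in 5 of 26 cases and lower in none. Glucosinolate genes were higher in 7 of 13, among them MYB28 (0.93 ± 0.21 (SE, adjusted p = 0.00632)), CYP83A1 (3.66 ± 0.86 (SE, adjusted p = 0.00784)) and TGG1, a myrosinase (1.99 ± 0.21 (SE, adjusted p = 3.16e-06)). Genes of auxin, gibberellin and shade growth were higher in 6 of 17, with HAT1 at 2.65 ± 0.27 (SE, adjusted p = 2.34e-06) and IAA1, an auxin-responsive repressor, at 2.94 ± 0.36 (SE, adjusted p = 2.64e-05).

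Some genes of other lists were lower within Arabidopsis in L than after 24 h of light. Plastid transcription genes were lower in 8 of 20 cases and higher in none, but 5 were higher and none lower on the spike scale, and PTAC10 stood at -1.83 ± 0.36 (SE, adjusted p = 0.00260) within Arabidopsis. Flavonoid genes were lower in 6 of 22 cases and higher in none within Arabidopsis (list median 0.13), and 9 were higher and 4 lower on the spike scale, with DFR at 3.89 ± 4.13 CPM in L and 44.3 ± 47.8 CPM after 24 h (-3.52 ± 0.77 (SE, adjusted p = 0.00628)) and MYB111 at -1.98 ± 0.47 (SE, adjusted p = 0.00828). Tetrapyrrole genes were higher in 3 and lower in 6 of 30 within Arabidopsis, and higher in 11 and lower in none on the spike scale. PORA was among the higher ones, at 4.09 ± 5.05 CPM in L and 0.602 ± 0.0539 CPM after 24 h (2.74 ± 0.76 (SE, adjusted p = 0.0232)). L replicates 1 and 2 of PORA, at 0.242 and 0.191 CPM, lay below that 24 h mean, so its call rests on the other L libraries. PRR9 of the clock differed by 2.05 ± 0.48 (SE, adjusted p = 0.00782), PIF3 by -1.43 ± 0.26 (SE, adjusted p = 0.00137) and PIL1 by -1.73 ± 0.38 (SE, adjusted p = 0.00469) within Arabidopsis. On the spike scale PRR9 was called higher (3.38), while PIF3 (-0.19) and PIL1 (-0.71) were not called. PTAC10 (-0.73) and MYB111 (-0.85) were not called on that scale either. CLV3 and HSP22, at or near 0 in L, averaged 0.516 ± 0.296 and 0.785 ± 0.815 CPM after 24 h.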

How the data were processed

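Counts per gene were deposited in 1 table for the 25 libraries of 5 groups, with Arabidopsis and Drosophila genes as rows, and the deposited counts were read as whole numbers. Per the submitters' processing notes, the build was TAIR10 and the tools included R 4.3.2, HTSeq and Salmon 1.9.0. Which of them made the counts, and any earlier filter, is not stated. Of 53986 entries, 37282 were single nuclear genes, all matched to the RefSeq TAIR10.1 annotation, 1128 joined several genes, 140 were plastid, 126 mitochondrial and 13771 Drosophila. The 1539 entries with no gene identifier (0.119% to 0.741% of a library's counts) were left out.

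Libraries held 17901840 to 24085995 counts. Genes passing filterByExpr (minimum count 10, minimum total 15) entered edgeR 4.0.16 under R 4.3.3 (quasi-likelihood test, Benjamini-Hochberg adjustment over 20615 genes, threshold 0.05). All 25 libraries entered 1 fit, once with summed Drosophila counts as library size and once with TMM factors over the Arabidopsis genes. Standard errors are the log2 difference over the root of F. The scripts were tested on simulated data. Values of single libraries were compared by two-sided exact permutation tests on log2 means. Intervals and floors (3 counts over a group) cover counting error only.

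Named genes were the 12 largest changes each way called on both scales without overlap and with at least 10 spike-scaled CPM in the higher group, the 8 genes with the largest share in each group, up to 3 called members of each list by within-Arabidopsis change, and a fixed panel. The groups, the 37 lists (642 genes, 609 tested, 35 also in merged entries) and the tests were chosen with earlier results of these data known. Alternatives were DESeq2 1.42.0, other scalings, no filter, a 1.5-fold threshold, replicate sets, a replicate block and leaving out each library, and, added after seeing the data, leaving out the ribosomal RNA entries. Organelle genes are given by identifier.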

Additional observations from a re-analysis of the deposited data

Results flagged for a closer look

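Of 267 groups of 5 libraries examined (genes named and library values, with no library at 0), 17 had 1 library whose gap to the nearest other was past Dixon's 95% critical value for the group's range, 10 of them in L and 7 in D. Chance gives about 1 such group in 20. In L, replicate 5 was the lone low library for MIR157c (9.29 CPM), AT2G25510 (107 CPM), ELIP1 (119 CPM), GNL (18.6 CPM), SCO1 (348 CPM), MYB111 (0.628 CPM), SCR (17.8 CPM) and TRY (4.52 CPM), and the lone high one for PWD (26.1 CPM). KCS6 was high in L replicate 1 (242 CPM). In D, replicate 1 stood high for GRF7 (369 CPM) and low for RBCS1A (8562 CPM), PSBO2 (34.6 CPM) and SAUR14 (0.958 CPM). BOA (17.5 CPM) and NRPB9B (4.25 CPM) were low in D replicate 5, and FIB1 was high in D replicate 4 (1.35 CPM). L replicate 5 thus accounts for 9 of the 17, and is also the L library with the highest mean correlation to D. What sets it apart was not tested.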

How the results depend on the processing

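Of 312 gene differences between L and D on either scale, 260 kept their direction and their side of the threshold under every alternative. There were 19 alternatives, or 18 for the 4 differences of CASP1 and CLV3, which were not tested with only the compared groups. Another 46 lost a call or turned round under at least 1, and 6 only gained one (spike-scale ERL1, GDH2, KNAT2, PTAC10, PWD and TOC1). Those that turned round, all but BBX22 without a call in at least 1 of the fits, were PIF3 (0.77), SIM (0.21), ATHB2 (0.96) and CYP79B3 (1.52) on the spike scale in replicates 1 and 2, and LIL3:2 (-0.67), MYB111 (-0.72), PRH75 (-0.32), NRPB8A (-0.086) and HY5 (-0.69) in replicates 3 to 5, PIF3 on leaving out 1 library (-0.27 to 0.076, above 0 without L replicate 3), UBQ10 within Arabidopsis under total nuclear counts (-0.22) and in replicates 1 and 2 (-0.077), NRPB1 there (0.016) and BBX22 there (-0.90). The cause was not tested. Between L and D, replicates 1 and 2 gave 210 genes lower on the spike scale, total nuclear counts gave 3288 higher and 10068 lower, and the 1.5-fold threshold 3610 lower within Arabidopsis. Leaving out each library gave 16908 to 18002 higher and 341 to 451 lower on the spike scale, and 5332 to 5837 and 5417 to 6315 within Arabidopsis.

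Replicate numbers were not taken as pairs. Correlations of same-numbered L and D deviations were 0.0317 to 0.201, with 2 of 5 under 0.1. Between L and 24 h 1 of 5 was under 0.1 (0.0315 to 0.351). The deviations did follow the replicate sets. Replicates 1 and 2 of L correlated positively with replicates 1 and 2 of D (0.154 to 0.372). Replicates 1 and 2 of either group correlated negatively with replicates 3 to 5 of the other (-0.282 to -0.066). The main fits hold no term for the set. With such a term, 156 gene differences within Arabidopsis kept their direction and call. On the spike scale 154 did, and 2 gained a call. The replicate block gave 17819 genes higher and 450 lower in L than D on the spike scale and 6457 and 6475 within Arabidopsis, and added spike-scale calls for PTAC10 (1.32), ERL1 (1.38), PRH75 (1.14), GDH2 (-1.30) and TOC1 (-1.12). With the replicate block the log2 values stayed 3.08 (nuclear per fly count), 1.15 (mitochondrial per fly count), -1.88 (mitochondrial share), -1.45 (genes holding 50%) and -0.045 (genes with 10 counts), but an exact test over 5 pairs cannot go below 0.0625. In replicates 1 and 2, and in replicates 3 to 5, they were 4.19 and 2.35, 1.55 and 0.88, -2.59 and -1.41, -0.55 and -2.05, and -0.037 and -0.051, where no exact test can reach 0.05. Genes with at least 1 count at equal depth differed by 0.011, in the opposite direction to genes with 10 counts. Leaving out each library gave 2.83 to 3.30, 0.96 to 1.34, -2.14 to -1.55, -1.60 to -1.22 and -0.052 to -0.042 in that order, and 1.00 to 1.97 and -1.84 to -1.01 for plastid counts per fly count and their share.

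Differences of single genes between L and 24 h were not checked under these alternatives, only the counts of genes called. Between L and 24 h, replicates 3 to 5 gave 315 higher and 20 lower on the spike scale and 78 and 60 within Arabidopsis. The 1.5-fold threshold gave 4061 and 60, and 257 and 182. Total nuclear counts gave 725 higher, and the lower count was 1614 with the replicate block, 1445 with a term for the replicate set and 1702 in replicates 1 and 2. Leaving out each library gave 3425 to 13598 higher and 63 to 112 lower on the spike scale, and 671 to 1464 and 573 to 1223 within Arabidopsis. Fly counts were fewer in L than in D, and the counts say nothing on how evenly fly cells were added.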
